A study of Mus musculus with 20 samples.

Results

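Mouse late 8-cell embryos that carried P300 siRNA together with I1394G, which the labels call a rescue, were compared with late 8-cell control embryos to describe what still differed between them. Each group had 2 libraries, so the groups compared held 4 of the 20 libraries of the series. All 4 came from embryos cultured from the zygote in KSOM medium and were prepared with the Smart-seq2 protocol. The I1394G group is labelled P300 knockdown I1394G rescue, and the controls are labelled WT. The neighbouring groups of the same stage, P300 siRNA (labelled P300 knockdown) and P300 siRNA NaCr (labelled P300 knockdown NaCr rescue), are given beside them, and P300 siRNA and control embryos of the early 8-cell stage serve as a comparison that shares no library with the late one. The labels spell out neither I1394G nor NaCr, taken in this text to mean a p300 point mutant and sodium crotonate, and they do not give the siRNA that the controls received, the form or dose of the rescue, or the number of embryos in a library.

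p300, encoded by Ep300, is a transcriptional coactivator that transfers acetyl groups to histones at enhancers and promoters, and it can also transfer crotonyl and other acyl groups. At the late 8-cell stage the cells of the mouse embryo flatten against each other and polarise. The outer cells then begin the programme of the trophectoderm, which forms the placenta, and the inner cells keep the pluripotency programme of the inner cell mass.

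Counts were deposited for 25208 genes and 16603 passed the filter on low counts. Library totals were 21.2 M and 24.8 M counts (M, mega) for I1394G and 22.7 M and 21.2 M for controls, within a range of 3.2 M to 24.8 M over the series. Levels are CPM, counts scaled to library size, given as the values of the 2 libraries of a group in replicate order. Changes are log2 fold changes ± SE, I1394G over control, and p values are adjusted over all genes tested (edgeR quasi-likelihood test, two-sided), with a call under 0.05. The labels do not say that the libraries of a group came from separate litters or cultures, so p values measure only the spread between libraries within groups. That spread was estimated over all 20 libraries of the series in 10 groups, not from the 4 libraries compared alone. In whole embryos, fewer cells of a type and less RNA per cell cannot be told apart.

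The tissue markers matched the label in part. Pou5f1, Klf5, Tfap2c and Nr5a2 were present at 69.7 CPM or more in each of the 4 libraries, and the 2-cell stage gene Zscan4d stood at 0.386 CPM or less. Sox2 was nearly absent from both groups, at 0.153 and 0.132 CPM in I1394G and 0 and 0.441 CPM in controls. Markers of cells that could travel with the embryo were low with a few exceptions. The 21 cumulus and granulosa cell markers summed to 88.4 and 90.2 CPM in I1394G, against 51.8 and 56.6 CPM in controls, and without Amhr2 to 25.8 and 36.1 CPM in I1394G and 21.3 and 28.1 CPM in controls. Of these markers 5 had no count in I1394G and 11 had none in controls, and Lhcgr, Has2 and Ereg were at 0 in both. The 17 blood markers summed to 35.5 and 50.1 CPM in I1394G and 9.04 and 8.44 CPM in controls, most of it Cd68. Without Cd68 they summed to 1.63 and 1.45 CPM in I1394G and 1.64 and 1.54 CPM in controls. Hbb-b1, Hba-a1 and Ptprc were at 0 in all 4 libraries. The 14 fibroblast and muscle markers summed to 5.72 and 8.8 CPM in I1394G and 3.18 and 3.42 CPM in controls, with Col3a1 and Dcn at 0 in both. Of the cumulus markers tested, 2 of 13 were called higher and 0 lower (median 1.14, or 0.57 with genes lacking counts in 1 group at their bound), of the blood markers 1 of 6 was higher (median 0.42), and of the fibroblast and muscle markers 0 of 9 were called in either direction by edgeR or by the DESeq2 Wald test, and 0 at an unadjusted p under 0.05 (median 1.45, or 1.39). The part of such cells in the results below was not tested.

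Ep300 is the siRNA's target, and it checks neither label at this stage. It read 14.8 and 16.2 CPM in I1394G, 16.2 and 13.2 CPM in P300 siRNA, 11.6 and 12.6 CPM in P300 siRNA NaCr and 22.03 and 15.2 CPM in controls. The I1394G and control values overlapped (log2 fold change -0.26 ± 0.36, adjusted p = 0.778). At the early 8-cell stage the mean was 62.2 CPM (SD 29.2) in controls and 14.1 CPM (SD 3.3) in P300 siRNA embryos. Ep300 was called lower in that edgeR comparison (log2 fold change -2.15 ± 0.37, P300 siRNA over control, adjusted p = 0.000819). An added copy of the gene and the embryo's own transcript cannot be told apart in a count per gene.

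I1394G embryos differed from controls at 527 of the 16603 genes, which is 3.17% of those tested. The higher genes were 331 (1.99%) and the lower genes 196 (1.18%), while 2806 genes had an unadjusted p under 0.05. The rises were the larger changes. Of the 331 higher genes, 309 rose at least 2-fold, 189 at least 4-fold and 103 at least 8-fold, and the median fitted change was 2.19 on the log2 scale. Of the 196 lower genes, 143 changed at least 2-fold, 35 at least 4-fold and 13 at least 8-fold, with a median size of 1.22. No control count was found for 11 of the higher genes, and no I1394G count for 5 of the lower genes, so their fitted values are not bounds. Both I1394G libraries stood apart from both controls for all 527 genes, a pattern that 28.9% of all genes tested showed upwards and 33.1% downwards. Where this pattern is given below for a called gene, it adds nothing to the call. The median of all genes tested was -0.01. In the same fit P300 siRNA embryos without a rescue differed from these controls at 4645 genes (28%) and P300 siRNA NaCr embryos at 261 (1.57%), both against the same control libraries. I1394G and P300 siRNA embryos differed from each other at 1789 genes (10.8%).

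**Figure D1:**
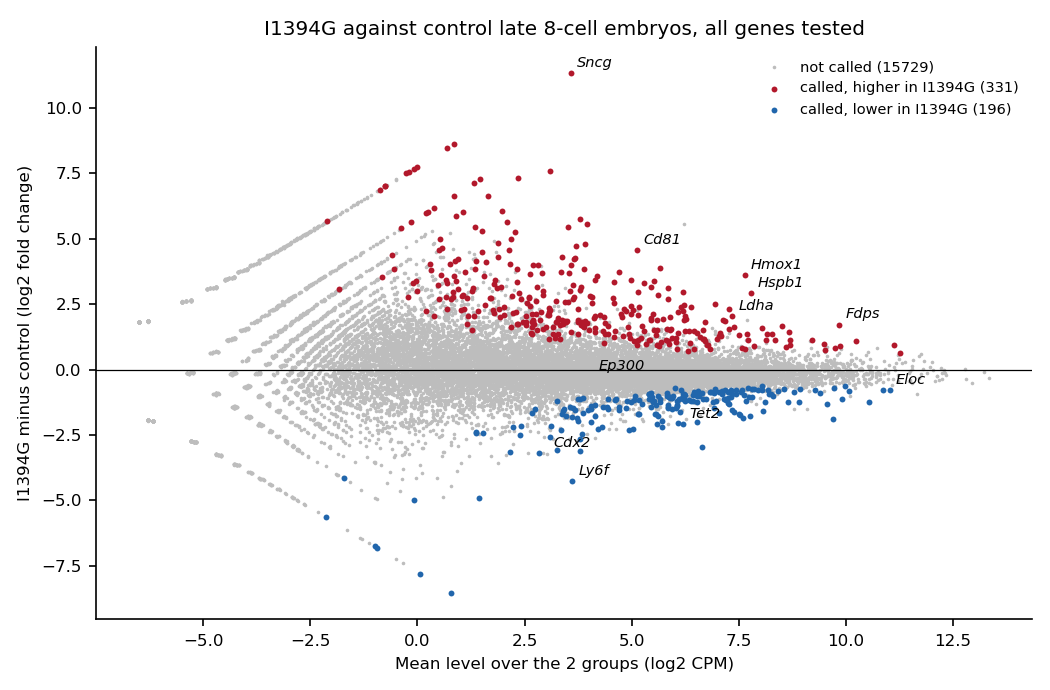
Log2 fold change of I1394G over control late 8-cell embryos (vertical axis) against the mean level of both groups in log2 CPM (horizontal axis), 1 point per gene, for the 16256 tested genes with a count in the 4 libraries. The 331 genes called higher reach a log2 fold change of 11.33 (Sncg), and the 196 genes called lower include Ly6f and Tet2, while Ep300 and Cdx2 are among the genes without a call.

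How firmly a single gene stands varied. All 527 kept their direction whichever of the 4 libraries was left out, and 32 of them, 27 higher and 5 lower, also kept the call. Those described below are Sncg, Mzb1, Mt3, Gpx3, Igfbp6, Cd81, Prdx1, Aqp11, Pkm, Eno1, Ldhb, Ldha, Hmox1, Hspb1, Hormad1 and Tet2. The call was lost for the other 495 without at least 1 library. It was lost for 429 and 368 genes without I1394G replicate 1 and replicate 2, and for 473 and 464 genes without control replicate 1 and replicate 2.

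The largest rises were in genes that the control embryos hardly expressed. Sncg, which encodes gamma-synuclein, had 19.8 and 28.1 CPM in I1394G embryos, against 0 and 0 CPM in controls. That is at least 304-fold higher, with the floor set at 3 counts over the 2 control libraries (adjusted p = 0.000525). Mzb1, known from B cells and plasma cells, had 9.65 and 24.6 CPM in I1394G and 0.0513 and 0.1103 CPM in controls, where the controls held 3 counts, a ratio of 222-fold, with a 95% counting interval of 75.5 to 1077 (adjusted p = 0.00108). Mt3, a metallothionein known from brain, had 10.2 and 10.1 CPM in I1394G and 0 and 0.1103 CPM in controls, with 2 control counts and a ratio of 191-fold, with a 95% counting interval of 52.5 to 1579 (adjusted p = 0.000974). These intervals and bounds cover counting error only. Gpx3, a secreted glutathione peroxidase, had 14.3 and 40.7 CPM in I1394G embryos, against 0.411 and 0.607 CPM in controls (log2 fold change 5.74 ± 0.61, adjusted p = 0.000121), and its I1394G libraries differed from each other by more than its controls did. Igfbp6, which binds insulin-like growth factors, had 22.97 and 27.2 CPM in I1394G and 0.616 and 1.27 CPM in controls (log2 fold change 4.73 ± 0.60, adjusted p = 0.000518). Cd81, a tetraspanin of the cell surface, had 78.5 and 55.03 CPM in I1394G and 2.46 and 3.199 CPM in controls (log2 fold change 4.56 ± 0.54, adjusted p = 0.000332). The rule required that none of these 6 genes overlap between I1394G and controls. None was called between I1394G and P300 siRNA embryos, in which Sncg had 28.1 and 54.7 CPM, Gpx3 27.3 and 51.4 CPM and Cd81 96.4 and 196 CPM (adjusted p against I1394G of 0.484, 0.488 and 0.118). The P300 siRNA pairs of Sncg, Mzb1, Igfbp6 and Cd81 lay above the I1394G pairs, and those of Gpx3 and Mt3 overlapped with them. A p that misses the threshold does not show that the levels were alike.

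The other large rises by this rule were Trh, Taf7l, Rhox6, Rhox2a, Klhl13, Mlana, Olfr376, Phlda2 and Bex2, at log2 fold changes between 3.83 and 5.56. Trh, the precursor of thyrotropin-releasing hormone, had 39.5 and 20.95 CPM in I1394G embryos, against 0.873 and 0.386 CPM in controls (log2 fold change 5.56 ± 1.26, adjusted p = 0.0232). In P300 siRNA embryos Trh read 39.3 and 0.939 CPM, with 1 library of that group just above the controls and the other far above. Olfr376, an olfactory receptor gene, had 21.6 and 4.75 CPM in I1394G and 1.03 and 0.607 CPM in controls (log2 fold change 3.99 ± 0.98, adjusted p = 0.0319), an uneven pair. Taf7l, a germ-cell variant of a general transcription factor subunit, had 37.5 and 20.8 CPM in I1394G and 1.54 and 0.496 CPM in controls (log2 fold change 4.81 ± 0.82, adjusted p = 0.00336), and Klhl13, an adaptor of a ubiquitin ligase, had 27.4 and 17.6 CPM in I1394G and 0.975 and 1.82 CPM in controls (log2 fold change 4.01 ± 0.75, adjusted p = 0.00676). Mlana, known from melanocytes, had 9.39 and 15.1 CPM in I1394G and 0.411 and 1.103 CPM in controls and lay close to the threshold (adjusted p = 0.0494). Rhox2a, Rhox6 and Olfr376 belong to gene families whose near-identical members can share reads, so which member rose is uncertain.

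By the same rule the largest falls were smaller and mostly in genes at 10 to 30 CPM in controls, where the rule set the lower edge. Called falls left out below 10 CPM included fitted log2 fold changes of -8.54 for Otoa, -7.82 for C1s1 and -6.82 for Oas1f. Ly6f, a member of the Ly6 family of surface proteins whose reads can be shared among members, had 0.664 and 1.72 CPM in I1394G embryos, against 21.8 and 24.9 CPM in controls (log2 fold change -4.27 ± 0.85, adjusted p = 0.0132). It had 0 and 0.0408 CPM in P300 siRNA embryos, below I1394G (adjusted p = 0.0281). Otx2, a homeobox transcription factor of the epiblast and the anterior head, had 2.297 and 1.72 CPM in I1394G embryos, against 13.2 and 20.9 CPM in controls (log2 fold change -3.08 ± 0.83, adjusted p = 0.049). Vangl1, a planar polarity protein, had 3.78 and 3.74 CPM in I1394G and 23.1 and 24.5 CPM in controls (log2 fold change -2.66 ± 0.44, adjusted p = 0.00275), and Fmnl2, a formin that builds actin filaments, had 1.68 and 1.14 CPM in I1394G and 12.6 and 13.1 CPM in controls (log2 fold change -3.18 ± 0.73, adjusted p = 0.023). The pairs of these 4 genes lay clear of each other, as the rule required. Smpdl3a, a phosphodiesterase related to acid sphingomyelinase, had 21.9 and 23.7 CPM in I1394G embryos, against 165 and 192 CPM in controls (log2 fold change -2.97 ± 0.57, adjusted p = 0.00865), the largest loss in CPM among the 15. Dap, a death-associated protein, had 21.1 and 16.8 CPM in I1394G and 83.2 and 89.8 CPM in controls (log2 fold change -2.19 ± 0.39, adjusted p = 0.00449) and Prl3b1, a prolactin-family hormone of the placenta, had 11.2 and 9.29 CPM in I1394G and 62.02 and 40.7 CPM in controls (log2 fold change -2.32 ± 0.42, adjusted p = 0.00496). For Dap and for Saxo1, an axoneme-linked gene at 4.59 and 1.67 CPM in I1394G and 17.5 and 10.8 CPM in controls, the P300 siRNA embryos were lower than I1394G, at 4.51 and 8.37 CPM and 0.265 and 0.408 CPM (adjusted p = 0.0216 and 0.00982). Cnmd, Tex14, Lypd8, Arl14epl, Cthrc1 and Lpp completed the 15 with Bambi, at log2 fold changes between -3.13 and -2.19.

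Bambi, a decoy receptor that damps BMP and TGF-beta signals, was lower in I1394G than in P300 siRNA embryos and in controls. It had 2.76 and 6.12 CPM in I1394G, 21.5 and 15.9 CPM in P300 siRNA, 8.12 and 6.84 CPM in P300 siRNA NaCr and 22.03 and 26.9 CPM in controls. The change against controls was -2.45 ± 0.44 (adjusted p = 0.00483) and that against P300 siRNA was -2.05 ± 0.44 (adjusted p = 0.00656). Btg1, an antiproliferative gene, was likewise lower in I1394G than in P300 siRNA embryos and in controls, at 24.9 and 35.3 CPM in I1394G, 95.8 and 82.8 CPM in P300 siRNA, 47.5 and 30.2 CPM in P300 siRNA NaCr and 68.3 and 72.97 CPM in controls (adjusted p = 0.00564 against P300 siRNA and 0.0426 against controls). Spry4, a feedback inhibitor of FGF receptor signalling, had 3.16 and 3.04 CPM in I1394G, 6.64 and 7.56 CPM in P300 siRNA, 5.15 and 3.23 CPM in P300 siRNA NaCr and 11.7 and 7.78 CPM in controls (adjusted p = 0.0121 and 0.00285). For all 3 genes the I1394G pair lay below the P300 siRNA pair and the control pair. The P300 siRNA NaCr pair also lay below both of these for each gene, and for Btg1 it overlapped with I1394G.

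**Figure D2:**
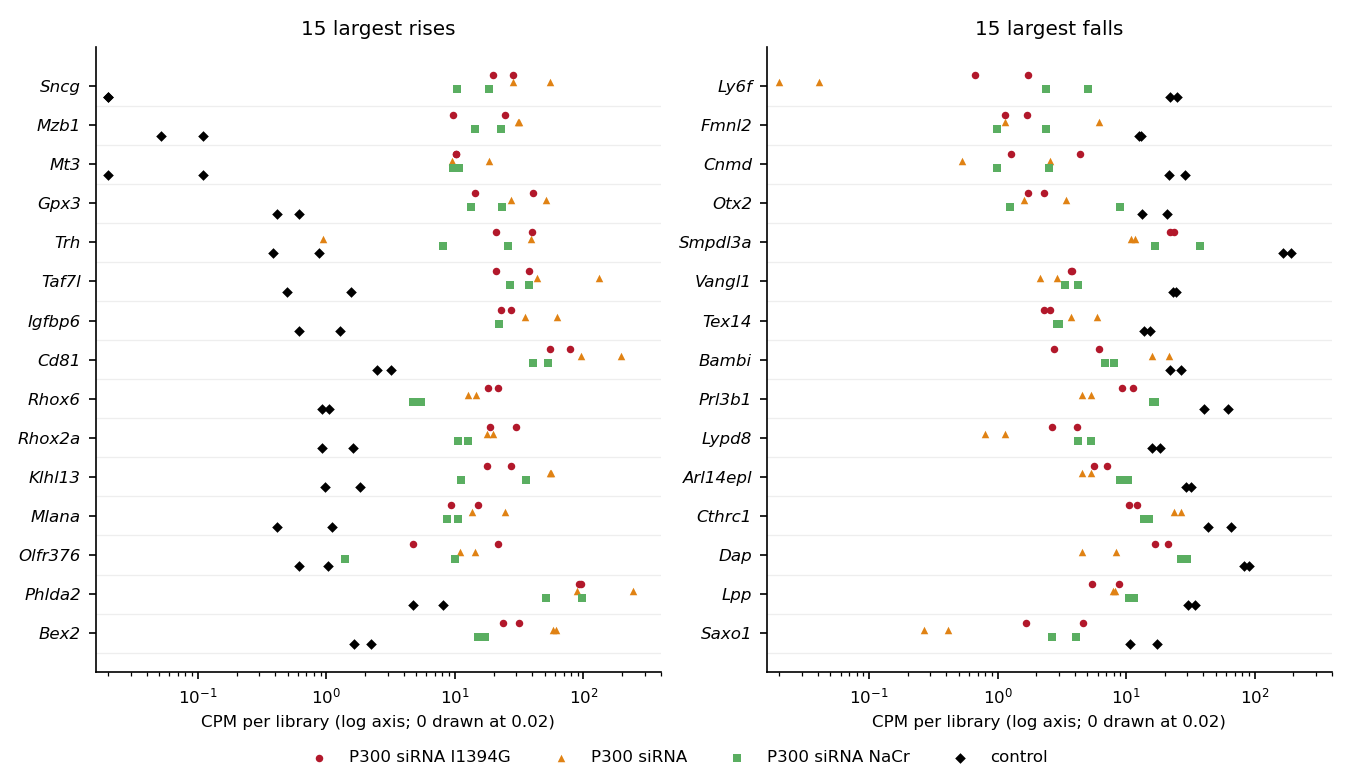
CPM in each library (horizontal log axis, 0 drawn at 0.02) for the 15 largest rises (left) and the 15 largest falls (right) in I1394G against control late 8-cell embryos, 2 points per group. Every I1394G pair lies clear of its control pair, and for Bambi the P300 siRNA libraries lie near the controls, at 21.5 and 15.9 CPM.

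Among lineage regulators, factors of the pluripotency network were called in both directions. Of the 34 tested members of the inner cell mass and pluripotency list, 2 rose and 4 fell, with a median of -0.37, and 14 had an unadjusted p under 0.05. Over all genes tested 1.99% were called higher and 1.18% lower, and each list count in this text is to be read beside these shares. In the same way, list counts at an unadjusted p under 0.05 stand beside 2806 of the 16603 genes tested. List counts by the DESeq2 Wald test stand beside the 669 higher and 405 lower genes of that test. A list with 1 call says little about its members as a set. Tfcp2l1, a transcription factor of naive pluripotency, had 77.99 and 91.04 CPM in I1394G embryos, against 316 and 292 CPM in controls (log2 fold change -1.85 ± 0.39, adjusted p = 0.0147). Klf5, needed for both first lineages, had 69.8 and 69.7 CPM in I1394G and 135 and 124 CPM in controls (log2 fold change -0.89 ± 0.22, adjusted p = 0.0372). Stat3, the transducer of LIF signals, had 5.15 and 6.03 CPM in I1394G and 17.1 and 14.5 CPM in controls (log2 fold change -1.498 ± 0.32, adjusted p = 0.0147), and Etv5, an ETS factor downstream of ERK, had 5.61 and 5.85 CPM in I1394G and 22.5 and 18.9 CPM in controls (log2 fold change -1.85 ± 0.38, adjusted p = 0.0129). All 4 pairs lay below the controls. Tfcp2l1 and Klf5 were lower still in P300 siRNA embryos, at 37.2 and 25.3 CPM and 23.6 and 23.7 CPM (adjusted p against I1394G of 0.0257 and 0.00086). Klf17, a Krüppel-like factor, went the other way with 248 and 176 CPM in I1394G and 47.8 and 26.2 CPM in controls (log2 fold change 2.52 ± 0.48, adjusted p = 0.00718). Nodal, a TGF-beta family ligand, had 1.43 and 1.89 CPM in I1394G and 0 and 0 CPM in controls, at least 21.04-fold higher against a control group without counts (adjusted p = 0.0205). Without 1 of the 4 libraries, 0 to 1 members were higher and 0 were lower, and limma on log2 FPKM called 1 in each direction.

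The core factors Pou5f1, Nanog, Tfap2c, Nr5a2, Tead4 and Gata6 passed no call. Pou5f1, which encodes OCT4, had 139 and 145 CPM in I1394G embryos, against 265 and 287 CPM in controls (log2 fold change -0.96 ± 0.42, adjusted p = 0.249). Nanog had 406 and 403 CPM in I1394G and 747 and 699 CPM in controls (log2 fold change -0.84 ± 0.48, adjusted p = 0.402). Both pairs lay below their controls, and both were above the P300 siRNA embryos, at 26.8 and 51.2 CPM for Pou5f1 and 67.7 and 86.01 CPM for Nanog (adjusted p = 0.0125 and 0.00656). Against controls both passed when only the 8 late 8-cell libraries were fitted (adjusted p = 0.0352 and 0.0128) and without the filter on low counts (adjusted p = 0.00875 and 0.01), and neither passed with the DESeq2 Wald test (adjusted p = 0.224 and 0.412). Tfap2c, at 90.8 and 94.2 CPM in I1394G and 134 and 129.5 CPM in controls, Nr5a2, at 129 and 116 CPM in I1394G and 161 and 151 CPM in controls, and Tead4, at 82.8 and 82.8 CPM in I1394G and 122 and 96.7 CPM in controls, had log2 fold changes of -0.51 ± 0.22, -0.35 ± 0.21 and -0.402 ± 0.27 (adjusted p = 0.238, 0.43 and 0.489). Gata6, a primitive endoderm factor, had 90.5 and 95.9 CPM in I1394G and 143 and 111 CPM in controls, with a log2 fold change of -0.45 ± 0.53 (adjusted p = 0.737). Each of these 4 pairs lay below its controls.

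Cdx2 and Gata3, which drive the trophectoderm, had lower values in I1394G without passing the threshold. Cdx2 had 1.28 and 1.89 CPM in I1394G embryos, against 15.7 and 13.9 CPM in controls (log2 fold change -3.21 ± 0.99, adjusted p = 0.0921), and Gata3 had 18.1 and 26.8 CPM in I1394G embryos, against 81.3 and 83.1 CPM in controls (log2 fold change -1.87 ± 0.66, adjusted p = 0.139). Neither overlapped with its controls. Cdx2 passed with limma on log2 FPKM at a pseudocount of 1 (adjusted p = 0.000775) and both genes passed when only the 8 late 8-cell libraries were fitted, which measures the spread in fewer groups (adjusted p = 0.00157 and 0.00219), and without the filter on low counts (adjusted p = 0.00495 and 0.000191). P300 siRNA embryos had 0 and 0.204 CPM of Cdx2 and 8.23 and 7.597 CPM of Gata3, and P300 siRNA NaCr embryos 5.28 and 3.36 CPM and 24.5 and 16.2 CPM. The difference between I1394G and P300 siRNA did not pass for either gene (adjusted p = 0.1 and 0.159).

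Over the 31 tested trophectoderm genes, 2 rose (6.45%) and 1 fell (3.23%), with a median of -0.40, and 13 had an unadjusted p under 0.05. Esx1, an X-linked homeobox gene of the placenta, had 5.97 and 5.503 CPM in I1394G and 1.13 and 0.552 CPM in controls (log2 fold change 2.75 ± 0.58, adjusted p = 0.0138), and Lgals3, a galactose-binding lectin, had 34.9 and 27.1 CPM in I1394G and 6.16 and 8.33 CPM in controls (log2 fold change 2.096 ± 0.46, adjusted p = 0.0183), while Btg1 was the member that fell. The balance of trophectoderm calls changed when only the 8 late 8-cell libraries were fitted, with 5 members higher and 9 lower. That fit called 1013 genes higher and 592 lower over all genes. Of 19 primitive endoderm genes, 1 rose and 1 fell (median -0.22). Sparc, a matrix protein of the endoderm, had 68.6 and 100.1 CPM in I1394G embryos, against 7.598 and 8.604 CPM in controls (log2 fold change 3.38 ± 0.56, adjusted p = 0.00275), and P4ha1, a collagen prolyl hydroxylase, had 16.4 and 25.8 CPM in I1394G and 83.2 and 84.3 CPM in controls (log2 fold change -1.98 ± 0.33, adjusted p = 0.00275). The Sparc and P4ha1 pairs lay on opposite sides of their controls.

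The signalling lists had few calls. In the Hippo pathway, which sets inner and outer fates through YAP and TAZ, 0 of 23 members rose and 1 fell (median -0.25), namely Wwtr1, which encodes TAZ, with 40.8 and 42.6 CPM in I1394G and 89.7 and 76.8 CPM in controls (log2 fold change -0.998 ± 0.24, adjusted p = 0.0291). Of 22 FGF receptor and ERK feedback genes, 1 rose (4.55%) and 2 fell (9.09%), with a median of -0.55. The feedback genes Spry4 and Etv5 fell, as given above, and Ier3, an immediate early gene, had 22.3 and 22.3 CPM in I1394G and 5.596 and 8.77 CPM in controls (log2 fold change 1.63 ± 0.38, adjusted p = 0.0258). Of 27 BMP, Nodal and TGF-beta genes, 1 rose and 2 fell (median -0.46). Smad3, which carries Nodal signals to the nucleus, had 1.17 and 2.201 CPM in I1394G embryos, against 8.83 and 6.62 CPM in controls (log2 fold change -2.18 ± 0.37, adjusted p = 0.00336), and Smad7, an inhibitor of the same pathway, had 3.57 and 3.39 CPM in I1394G and 9.29 and 10.8 CPM in controls (log2 fold change -1.52 ± 0.39, adjusted p = 0.0419). The ligand Nodal itself was the member that rose. All 3 medians were below that of all genes tested, -0.01. In the Hippo, FGF and ERK, and BMP, Nodal and TGF-beta lists, 15, 16 and 19 members had a log2 fold change below 0. An unadjusted p under 0.05 was found for 4, 13 and 7 members, against 2806 of the 16603 genes tested.

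Glycolysis was the list with the largest share of members called. Of its 24 tested members 9 rose (37.5%, against 1.99% of all genes tested) and 1 fell, and the median change was 1.39. The 9 were Gpi1, Pfkl, Aldoa, Tpi1, Pgk1, Eno1, Pkm, Ldha and Ldhb, enzymes that run from the second step of the pathway to lactate. Ldha, which turns pyruvate into lactate, had 249.8 and 276 CPM in I1394G embryos, against 67.1 and 59.6 CPM in controls (log2 fold change 2.05 ± 0.29, adjusted p = 0.0011). Pkm, the pyruvate kinase that makes the second ATP of the pathway, had 219.9 and 224 CPM in I1394G and 49.5 and 70.05 CPM in controls (log2 fold change 1.89 ± 0.24, adjusted p = 0.000496). Eno1, the enolase before it, had 209 and 249 CPM in I1394G and 59.5 and 65.9 CPM in controls (log2 fold change 1.87 ± 0.25, adjusted p = 0.000678). These 3 pairs lay clear above their controls. Ldhb, the other lactate dehydrogenase subunit, had 32.3 and 26.5 CPM in I1394G and 2.88 and 5.63 CPM in controls (log2 fold change 2.79 ± 0.38, adjusted p = 0.000774) and was higher still in P300 siRNA embryos, at 67.4 and 95 CPM (adjusted p against I1394G = 0.0122). Pgk1, the first ATP-making enzyme, had 125 and 121 CPM in I1394G and 28.8 and 36.2 CPM in controls (log2 fold change 1.92 ± 0.37, adjusted p = 0.00758), and Aldoa, the aldolase, had 1157 and 1037 CPM in I1394G and 608 and 648 CPM in controls (log2 fold change 0.805 ± 0.19, adjusted p = 0.0302). Slc16a1, the carrier that moves lactate and pyruvate across the cell membrane, was the member that fell, with 29.9 and 43.1 CPM in I1394G embryos, against 103 and 89.7 CPM in controls (log2 fold change -1.398 ± 0.27, adjusted p = 0.00784). It was lower than in P300 siRNA embryos too, which had 102 and 75.2 CPM (adjusted p = 0.00648). Without 1 of the 4 libraries, 4 to 6 members were called higher, and the lowest number, 4, came without I1394G replicate 1 and without either control library.

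The respiratory chain had no calls in the same test, though most of its genes had a change above 0. Of 76 tested genes of the respiratory chain and ATP synthase, 0 were called in either direction by edgeR, and 0 by limma on log2 FPKM, while the DESeq2 Wald test called 4 higher and 0 lower. An unadjusted p under 0.05 was found for 13 of them, against 2806 of the 16603 genes tested, and the median was 0.26. The log2 fold change was above 0 for 58 of them and below 0 for 18, against 7844 of 16603 above 0 over all genes tested. Atp5b, the member with the most counts, which makes the catalytic subunit of ATP synthase, had 1918 and 2055 CPM in I1394G and 1983 and 2128 CPM in controls (log2 fold change -0.05 ± 0.17, adjusted p = 0.942).

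p300 is brought to DNA by factors such as CREB, which binds the cAMP response element. To give sequence context, the promoters of 4 metabolic and stress genes that rose are shown. Each was required to hold the motif marked in it, so the 4 promoters do not stand for the genes that rose. They are marked for 1 motif each, and other matches, such as ACGTG in Ldha, are left unmarked. They are the 250 bases before the annotated start, from RefSeq on GRCm38.p6, 5′ to 3′ on the gene's strand. Capitals mark TGACGTCA, the cAMP response element, in Ldha (chr7:46845554-46845803, plus strand, the only 1 of its 2 listed starts with the element) and Btg2 (chr1:134079156-134079405, minus strand). In Pgk1 (chrX:106186850-106187099, plus strand) they mark ACGTG, the core that hypoxia-inducible factors bind, and in Prdx1 (chr4:116685349-116685598, plus strand) TGACNNNGC, the core of the antioxidant response element, each searched on both strands.
Ldha: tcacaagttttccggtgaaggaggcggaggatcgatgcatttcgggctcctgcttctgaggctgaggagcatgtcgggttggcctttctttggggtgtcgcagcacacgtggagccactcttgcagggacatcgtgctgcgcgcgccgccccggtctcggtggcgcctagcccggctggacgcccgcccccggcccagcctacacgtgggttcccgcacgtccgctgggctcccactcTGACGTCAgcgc
Btg2: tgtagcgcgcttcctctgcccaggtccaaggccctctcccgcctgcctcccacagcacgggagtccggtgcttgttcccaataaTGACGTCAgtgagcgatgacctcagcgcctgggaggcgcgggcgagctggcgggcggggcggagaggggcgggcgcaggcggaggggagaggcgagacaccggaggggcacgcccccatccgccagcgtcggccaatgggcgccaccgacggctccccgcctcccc
Pgk1: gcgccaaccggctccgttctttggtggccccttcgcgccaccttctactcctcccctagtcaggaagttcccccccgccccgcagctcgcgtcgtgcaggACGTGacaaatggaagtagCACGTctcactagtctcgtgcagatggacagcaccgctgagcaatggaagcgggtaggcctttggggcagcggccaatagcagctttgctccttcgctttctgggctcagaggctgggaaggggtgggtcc
Prdx1: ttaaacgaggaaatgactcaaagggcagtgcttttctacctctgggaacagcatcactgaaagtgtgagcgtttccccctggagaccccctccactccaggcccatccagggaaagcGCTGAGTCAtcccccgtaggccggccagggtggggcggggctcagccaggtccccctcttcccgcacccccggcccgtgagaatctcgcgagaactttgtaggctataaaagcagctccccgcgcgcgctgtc
Over all 32851 promoter windows of 300 bases, 1.79% held TGACGTCA, 19.6% ACGTG and 12.4% TGACNNNGC. Promoters were found for 263 of the 331 higher genes, and of their 342 windows 1.75%, 21.6% and 15.2% held these motifs. For the lower genes 158 of 196 matched, with 199 windows and shares of 1.51%, 30.7% and 18.6%, and over all genes tested the shares were 2.8%, 23.8% and 14%. The higher genes did not hold the cAMP response element more often than the genes tested. A match is a run of letters in this window and says nothing of binding.

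Sterol synthesis was the other metabolic list that moved. Of 30 tested cholesterol and fatty acid synthesis genes 5 rose (16.7%, against 1.99% of all genes tested) and 0 fell, with a median of 0.46. Fdps, which makes farnesyl pyrophosphate, had 1286 and 1533 CPM in I1394G embryos, against 415 and 441 CPM in controls (log2 fold change 1.72 ± 0.32, adjusted p = 0.00699). Fdft1, the squalene synthase that uses it, had 1025 and 886 CPM in I1394G and 513 and 462 CPM in controls (log2 fold change 0.97 ± 0.21, adjusted p = 0.0185). Sqle, the squalene epoxidase, had 245 and 274 CPM in I1394G and 98.8 and 107 CPM in controls (log2 fold change 1.33 ± 0.24, adjusted p = 0.00503), and Ebp, a sterol isomerase, had 402 and 369 CPM in I1394G and 177 and 173 CPM in controls (log2 fold change 1.14 ± 0.30, adjusted p = 0.0454). Insig1, which holds back the sterol-sensing factor SREBP, had 166 and 134 CPM in I1394G and 46.6 and 58.4 CPM in controls (log2 fold change 1.52 ± 0.29, adjusted p = 0.00758). Each pair lay above both controls. Fdps, Fdft1 and Ebp also stood above P300 siRNA embryos, which had 447 and 787 CPM of Fdps, 473 and 396 CPM of Fdft1 and 153 and 144 CPM of Ebp (adjusted p = 0.0235, 0.00334 and 0.0078). P300 siRNA NaCr embryos had 1478 and 1941 CPM of Fdps, 871 and 1082 CPM of Fdft1 and 310.2 and 412 CPM of Ebp, values that overlapped with those of I1394G. Without 1 of the 4 libraries 0 to 2 members were called, with 0 left without either control library.

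Oxidative stress genes rose together with iron storage genes. Of 31 tested genes of oxidative stress, glutathione and metallothioneins, 7 rose (22.6%, against 1.99% of all genes tested) and 0 fell (median 0.48). Hmox1, the haem oxygenase that NRF2 induces, had 339 and 401 CPM in I1394G embryos, against 29.9 and 30.6 CPM in controls (log2 fold change 3.61 ± 0.39, adjusted p = 0.000121), a 12.2-fold ratio of the means. Prdx1, a peroxiredoxin that removes hydrogen peroxide, had 1574 and 1738 CPM in I1394G and 806 and 756 CPM in controls (log2 fold change 1.08 ± 0.16, adjusted p = 0.00141). Gstm1, a glutathione transferase, had 21.9 and 20.2 CPM in I1394G and 3.34 and 1.88 CPM in controls (log2 fold change 3.01 ± 0.50, adjusted p = 0.00285), with 107 and 72.5 CPM in P300 siRNA embryos, above I1394G (adjusted p = 0.00862). The spread within each pair of these 3 genes was small beside the gap to the controls. Sod1, Prdx2, Txnip and Gpx3 were the other members that rose, and 3 to 4 of the list were called without 1 of the 4 libraries, the 3 without control replicate 2. Outside the list, the ferritin chains Ftl1 and Fth1, which store iron, were among the called genes with the most counts. Ftl1 had 3017 and 2869.8 CPM in I1394G and 1465 and 1610.2 CPM in controls (log2 fold change 0.94 ± 0.17, adjusted p = 0.00464) and Fth1 had 1201 and 1243 CPM in I1394G and 634 and 674 CPM in controls (log2 fold change 0.901 ± 0.20, adjusted p = 0.0215), and both have processed copies that can share their reads.

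Genes of the p53 response also rose. Of 35 tested p53 targets and apoptosis genes 9 were higher (25.7%, against 1.99% of all genes tested) and 0 lower (median 0.56). Btg2, an antiproliferative p53 target, had 84.5 and 159.5 CPM in I1394G embryos, against 22.9 and 28.7 CPM in controls (log2 fold change 2.24 ± 0.34, adjusted p = 0.00147). Pmaip1, which encodes the death-promoting protein NOXA, had 170.1 and 290.2 CPM in I1394G and 67.1 and 90.95 CPM in controls (log2 fold change 1.54 ± 0.32, adjusted p = 0.0125). The I1394G values of both genes were uneven, though each was above both controls. Trp53inp1, a p53-induced nuclear protein, had 252 and 259 CPM in I1394G and 73.2 and 92.1 CPM in controls (log2 fold change 1.63 ± 0.30, adjusted p = 0.0066), against 681 and 406 CPM in P300 siRNA embryos (adjusted p = 0.0258). Ei24, a p53-induced gene of the endoplasmic reticulum, had 398 and 392 CPM in I1394G and 133 and 127 CPM in controls (log2 fold change 1.604 ± 0.33, adjusted p = 0.0126). Cdkn1a, which encodes the cell cycle inhibitor p21, had 629.5 and 561 CPM in I1394G and 232 and 203 CPM in controls (log2 fold change 1.45 ± 0.34, adjusted p = 0.0262), and Ccng1, cyclin G1, had 522 and 582 CPM in I1394G and 143 and 205 CPM in controls (log2 fold change 1.66 ± 0.35, adjusted p = 0.0148). Fas and Casp8, a death receptor and the caspase it activates, were the low members that rose. Fas had 4.95 and 9.16 CPM in I1394G and 0.103 and 0.607 CPM in controls (log2 fold change 4.296 ± 0.94, adjusted p = 0.023), and Casp8 had 2.501 and 1.01 CPM in I1394G and 0 and 0 CPM in controls, at least 21.3-fold higher (adjusted p = 0.0147). The count rested on all 4 libraries. It was 3 without I1394G replicate 1, 3 without I1394G replicate 2, 0 without control replicate 1 and 1 without control replicate 2.

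Other stress lists had few calls. Hspb1, a small heat shock protein, had the lowest adjusted p of all genes, with 338 and 446 CPM in I1394G embryos, against 43.9 and 60.3 CPM in controls (log2 fold change 2.91 ± 0.27, adjusted p = 5.03e-05). Its pair lay far above the controls, and its adjusted p stayed at 0.00713 or lower without any 1 library. Hsph1, a large heat shock protein, fell with 91.8 and 85 CPM in I1394G and 180.2 and 211 CPM in controls (log2 fold change -1.14 ± 0.25, adjusted p = 0.0183), and these were the 2 calls among 27 heat shock proteins and chaperonins (median -0.35). Of the 27, 21 had a log2 fold change below 0 and 13 had an unadjusted p under 0.05. Of 34 genes of the unfolded protein and integrated stress response 2 rose (median 0.12). Psph, the last enzyme of serine synthesis, had 60.1 and 58.9 CPM in I1394G and 27.5 and 27.2 CPM in controls (log2 fold change 1.12 ± 0.21, adjusted p = 0.00638), and Ddit4, an inhibitor of mTORC1, had 31.03 and 31.6 CPM in I1394G and 11.5 and 12.8 CPM in controls (log2 fold change 1.36 ± 0.32, adjusted p = 0.0258). Of 25 interferon and innate sensing genes 3 rose and 1 fell (median 0.46). Irf1, an interferon regulatory factor, had 3.57 and 3.26 CPM in I1394G and 0.513 and 0.1103 CPM in controls (log2 fold change 3.39 ± 0.61, adjusted p = 0.00503), Isg20, an exonuclease, had 2.96 and 3.96 CPM in I1394G and 0.257 and 0.1103 CPM in controls (log2 fold change 4.16 ± 1.05, adjusted p = 0.0378), and Ifitm3, a membrane protein that blocks virus entry, had 5.61 and 10.5 CPM in I1394G and 1.39 and 2.096 CPM in controls (log2 fold change 2.21 ± 0.55, adjusted p = 0.0363). All 3 were at low levels. Wdfy1, an endosomal adaptor, was the member that fell, with 56.1 and 43.5 CPM in I1394G and 113 and 113 CPM in controls (log2 fold change -1.18 ± 0.28, adjusted p = 0.0288). Of 42 proteasome genes 0 were called by edgeR and 0 by limma, while the DESeq2 Wald test called 2 higher and 6 had an unadjusted p under 0.05 (median -0.03). Psma1, its member with the most counts, had 1290.3 and 1254 CPM in I1394G and 1130.5 and 1205 CPM in controls (log2 fold change 0.12 ± 0.19, adjusted p = 0.811).

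**Figure D3:**
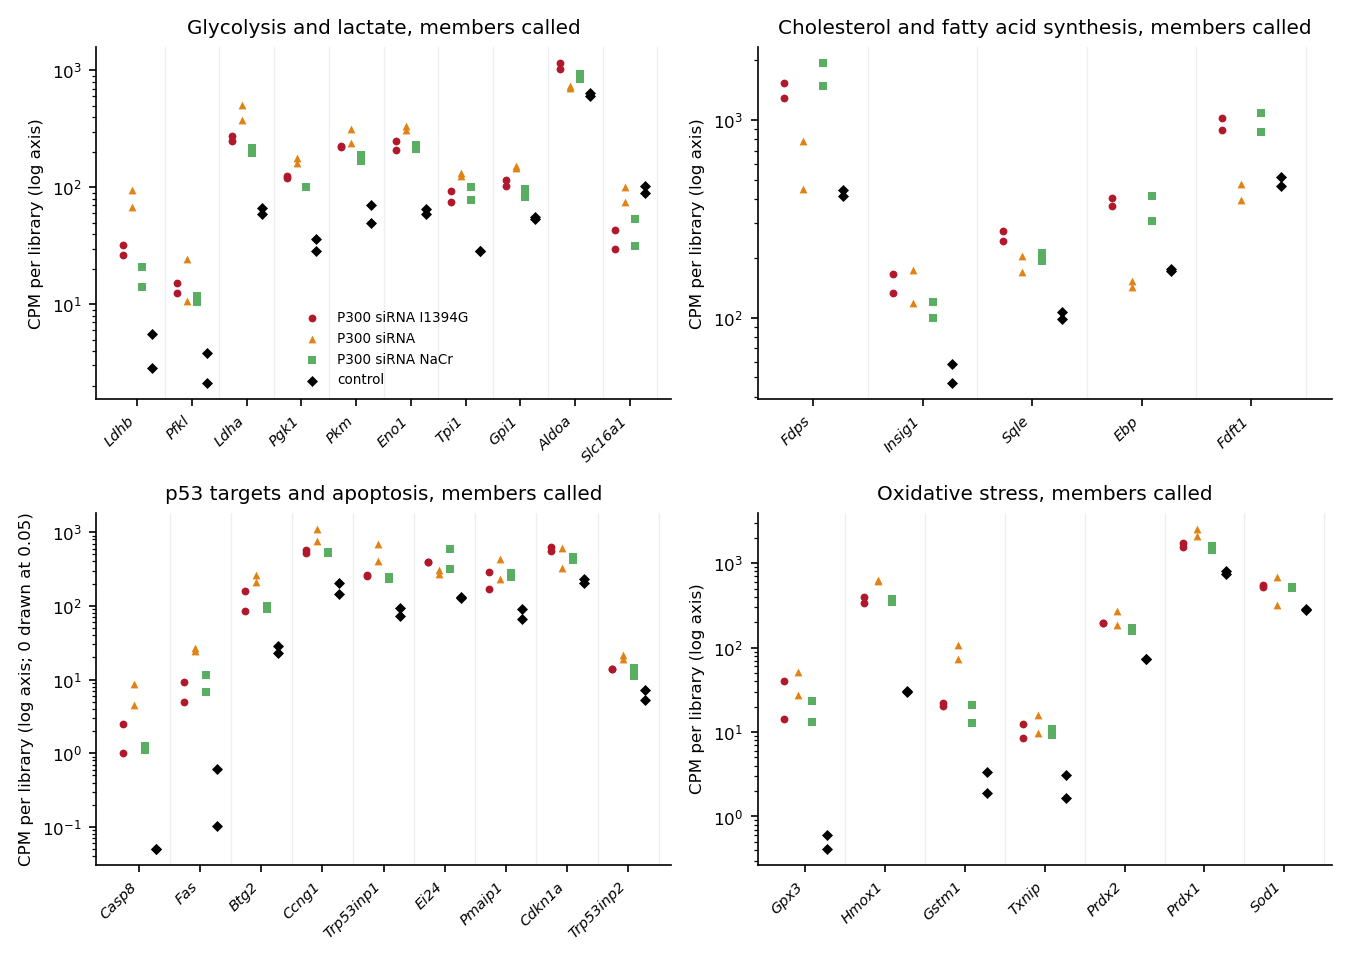
CPM in each library (vertical log axis, 0 drawn at 0.05) for the members called in 4 lists, in order of log2 fold change, with 2 points per group. In 9 of the 10 called glycolysis genes the I1394G pair lies above the controls, Slc16a1 being the exception, and all called members of the other 3 lists lie above them.

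Germline genes formed the largest group of rises by number. Of 62 tested germline and cancer-testis genes 10 rose and 1 fell, 16.1% and 1.61% against 1.99% and 1.18% of all genes tested, with a median of 0.45. Hormad1, a protein of meiotic chromosome axes, had 54.2 and 61.2 CPM in I1394G embryos, against 11.96 and 15.4 CPM in controls (log2 fold change 2.07 ± 0.30, adjusted p = 0.0011). Rhox6 and Rhox2a, reproductive homeobox genes of 1 cluster on the X chromosome, had 18.02 and 21.5 CPM in I1394G and 0.924 and 1.05 CPM in controls (log2 fold change 4.31 ± 0.65, adjusted p = 0.00173), and 18.7 and 30.02 CPM in I1394G and 0.924 and 1.6 CPM in controls (log2 fold change 4.27 ± 0.69, adjusted p = 0.00284). Usp26, an X-linked deubiquitinase of the testis, had 16.03 and 10.8 CPM in I1394G and 3.34 and 2.98 CPM in controls (log2 fold change 2.08 ± 0.35, adjusted p = 0.00293), and P300 siRNA embryos stood above it with 33.7 and 30.2 CPM (adjusted p = 0.0218). Tex15, needed for meiotic repair and piRNA-directed silencing in male germ cells, had 21.2 and 17.7 CPM in I1394G and 2.52 and 4.03 CPM in controls (log2 fold change 2.57 ± 0.54, adjusted p = 0.0134), with 123 and 75.97 CPM in P300 siRNA embryos (adjusted p = 0.00741). Rhox1, Tex11, Taf7l, Brdt and Bex2 were the other rises, and Tex14, a protein of germ-cell bridges, was the fall, with 2.297 and 2.55 CPM in I1394G and 15.2 and 13.9 CPM in controls (log2 fold change -2.58 ± 0.54, adjusted p = 0.0129). Without 1 of the 4 libraries 1 to 8 members were called higher, the lowest numbers being 2 without control replicate 1 and 1 without control replicate 2.

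The imprinted genes that were called were all higher. Of 45 tested, 4 rose (8.89%, against 1.99% of all genes tested) and 0 fell (median 0.39), and 28 had a log2 fold change above 0 and 16 below. Cdkn1c, which encodes the cell cycle inhibitor p57, had 20.5 and 17.3 CPM in I1394G embryos, against 2.05 and 0.772 CPM in controls (log2 fold change 3.73 ± 0.59, adjusted p = 0.0021). Phlda2, which limits placental growth, had 93.04 and 95.7 CPM in I1394G embryos, against 8.06 and 4.74 CPM in controls (log2 fold change 3.88 ± 0.60, adjusted p = 0.00173). Control embryos of earlier stages had higher mean levels of Phlda2 than the late controls. These were 41.1 CPM at the late 2-cell stage (SD 8.07), 121.9 CPM at the 4-cell stage (SD 106.6) and 94.7 CPM at the early 8-cell stage (SD 35.5). Cdkn1c and Phlda2 are maternally expressed genes of the same imprinted cluster on chromosome 7, as is Cd81 in the placenta. The fourth, Impact, a paternally expressed regulator of translation, had 277 and 304 CPM in I1394G and 134 and 132 CPM in controls (log2 fold change 1.13 ± 0.24, adjusted p = 0.0164), below the 638 and 423 CPM of P300 siRNA embryos (adjusted p = 0.0289). Counts per gene do not tell the parental alleles apart. Called members numbered 1 to 3 without 1 of the 4 libraries, the 1 without control replicate 2.

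A larger share of X-linked than of autosomal genes rose, a difference that was not tested. Of 684 tested genes that RefSeq places on the X chromosome, 37 rose (5.41%) and 3 fell (0.439%), against 294 (1.85%) and 193 (1.21%) of 15889 autosomal genes. The median change was 0.35 for X-linked and -0.02 for autosomal genes. Leaving out the Rhox cluster, 33 of 673 rose (4.9%) and the median was 0.33. The levels of some genes depend on the sex of the embryos in a library. Xist, which silences 1 X chromosome in females, had 139 and 98.3 CPM in I1394G and 276 and 140 CPM in controls, and the Y-linked genes Ddx3y and Eif2s3y had 18.1 and 40.2 CPM and 39.9 and 86 CPM in I1394G, against 30.9 and 68.4 CPM and 45 and 97 CPM in controls. The Y-linked values of replicate 2 were higher than those of replicate 1 in both groups. The Xist pair lay below both controls, and the Y-linked genes overlapped between the groups. Their part in the X-linked rises was not tested. Of the 11 tested genes of the list on X chromosome dosage and Y linkage 0 were called, by edgeR, by the DESeq2 Wald test and by limma alike, and 1 had an unadjusted p under 0.05 (median -0.59). Rlim, which activates Xist, had 218 and 259.9 CPM in I1394G and 268 and 306 CPM in controls (log2 fold change -0.26 ± 0.23, adjusted p = 0.62).

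Chromatin enzymes were mostly without a call. Of 21 genes for p300 and other lysine acyltransferases 0 were called by edgeR and 0 by limma, and 1 was higher by the DESeq2 Wald test, while 4 had an unadjusted p under 0.05 (median -0.19), and Hat1, the member with the most counts, had 679 and 831 CPM in I1394G and 610 and 794 CPM in controls (log2 fold change 0.11 ± 0.20, adjusted p = 0.859). Of 21 readers of crotonyl-lysine and acetyl-lysine 0 were called by any of these 3 tests and 1 had an unadjusted p under 0.05 (median -0.15), with Dpf2 at 191 and 151 CPM in I1394G and 216 and 203 CPM in controls (log2 fold change -0.29 ± 0.23, adjusted p = 0.568). Hdac2, a class I deacetylase that also removes crotonyl groups, was the 1 call among 18 deacetylases and sirtuins (median 0.32), with 90.7 and 93.98 CPM in I1394G embryos, against 187 and 212 CPM in controls (log2 fold change -1.11 ± 0.29, adjusted p = 0.0419). Acadl, a dehydrogenase of fatty acid oxidation, was the 1 call among 22 genes of crotonyl-CoA and fatty acid oxidation (median -0.23), with 88.7 and 78.05 CPM in I1394G embryos, against 224 and 263 CPM in controls (log2 fold change -1.55 ± 0.31, adjusted p = 0.00936). Both pairs lay below their controls.

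Tet2, which oxidises methylated cytosine, was lower in I1394G embryos. It had 24.3 and 32.1 CPM in I1394G embryos, against 126 and 113 CPM in controls (log2 fold change -2.08 ± 0.26, adjusted p = 0.0004), and its adjusted p stayed at 0.0181 or lower without any 1 of the 4 libraries. P300 siRNA embryos had 13.5 and 12.9 CPM, below I1394G (adjusted p = 0.0115), and P300 siRNA NaCr embryos 49.7 and 38.9 CPM. It was the 1 call among 17 genes of DNA methylation and demethylation (median 0.11). Ezh2, the methyltransferase of Polycomb, was the 1 call among 46 histone methyltransferases and demethylases (median -0.07), with 70.7 and 82.1 CPM in I1394G and 192 and 158 CPM in controls (log2 fold change -1.19 ± 0.22, adjusted p = 0.00638). Of 43 remodelling complex genes 0 were called by edgeR and 0 by limma, and 1 was lower by the DESeq2 Wald test, while 3 had an unadjusted p under 0.05 (median 0.00), and Rbbp7 had 2221 and 2005 CPM in I1394G and 1669 and 1664 CPM in controls (log2 fold change 0.34 ± 0.25, adjusted p = 0.531).

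Some ribosome biogenesis genes were called lower, while no cytosolic ribosomal protein gene was called. Of 78 tested biogenesis genes 5 fell (6.41%, against 1.18% of all genes tested), 0 rose and 73 had no call. A log2 fold change below 0 was found for 71 of the 78, with a median of -0.41, and 31 had an unadjusted p under 0.05. Wdr12, which helps to mature the large subunit's RNA, had 161 and 169 CPM in I1394G embryos, against 372 and 402 CPM in controls (log2 fold change -1.23 ± 0.21, adjusted p = 0.00354). Dcaf13 and Tsr1, of small subunit maturation, had 368 and 362 CPM in I1394G and 639 and 595 CPM in controls (log2 fold change -0.76 ± 0.18, adjusted p = 0.0248), and 34.7 and 41.03 CPM in I1394G and 86.05 and 68.6 CPM in controls (log2 fold change -1.03 ± 0.24, adjusted p = 0.0268), while Rrp8, a nucleolar methyltransferase, had 67.5 and 55.2 CPM in I1394G and 118 and 129 CPM in controls (log2 fold change -1.01 ± 0.24, adjusted p = 0.0278). Each pair lay below both controls. Ltv1 was the fifth. The DESeq2 Wald test called 13 lower, and without 1 of the 4 libraries 0 to 1 were called. Of 78 cytosolic ribosomal proteins 0 were called by edgeR, by the DESeq2 Wald test or by limma, and 2 had an unadjusted p under 0.05, with 51 of the 78 below 0 (median -0.05, against 8412 of 16603 genes below 0 over all genes tested), and Rplp0 had 3654 and 3671 CPM in I1394G and 4050 and 3906 CPM in controls (log2 fold change -0.12 ± 0.16, adjusted p = 0.778).

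Cell division lists had 1 call each, 2% of the replication list lower and 2.56% of the mitosis list higher. Over all genes tested 1.18% were lower and 1.99% higher. Tyms, the thymidylate synthase, was the 1 fall among 50 DNA replication genes (median -0.16, 7 with an unadjusted p under 0.05), with 224 and 255 CPM in I1394G embryos, against 547 and 572 CPM in controls (log2 fold change -1.22 ± 0.25, adjusted p = 0.0118). Pttg1, securin, was the 1 rise among 39 mitosis and spindle genes (median -0.21, 27 below 0 and 14 with an unadjusted p under 0.05, against 2806 of the 16603 genes tested), with 472 and 421 CPM in I1394G embryos, against 217 and 189 CPM in controls (log2 fold change 1.14 ± 0.28, adjusted p = 0.0309). Of 23 amino acid transporters 0 were called by edgeR and 0 by limma, and 3 were higher by the DESeq2 Wald test, while 5 had an unadjusted p under 0.05 (median -0.22), with Slc1a1, a glutamate carrier, at 582 and 642 CPM in I1394G and 493 and 547 CPM in controls (log2 fold change 0.23 ± 0.27, adjusted p = 0.724).

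Among junction and transport genes, Cldn6, a claudin of tight junctions, was the 1 rise of 39 polarity, adhesion and junction genes (median -0.32). It had 436 and 462 CPM in I1394G embryos, against 147 and 207 CPM in controls (log2 fold change 1.34 ± 0.22, adjusted p = 0.00295). Of 13 aquaporins and subunits of the sodium-potassium ATPase, which move the fluid of the later cavity, 2 rose and 0 fell (median 0.12). Aqp11, an aquaporin of the endoplasmic reticulum, had 54.7 and 40.4 CPM in I1394G embryos, against 10.6 and 8.49 CPM in controls (log2 fold change 2.32 ± 0.30, adjusted p = 0.000525), and Atp1b2, a beta subunit best known from brain, had 21.03 and 22.3 CPM in I1394G embryos, against 1.59 and 1.77 CPM in controls (log2 fold change 3.68 ± 0.58, adjusted p = 0.00189). All 3 pairs lay above their controls.

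Transcripts of earlier stages had few calls. Of 47 tested maternal oocyte transcripts 2 rose and 0 fell (median 0.01), Nlrp4f at 17.8 and 10.5 CPM in I1394G and 3.03 and 2.54 CPM in controls (log2 fold change 2.34 ± 0.49, adjusted p = 0.0136) and Tle6, of the subcortical maternal complex, at 10.7 and 12.5 CPM in I1394G and 4.72 and 5.68 CPM in controls (log2 fold change 1.16 ± 0.31, adjusted p = 0.0469). Of 32 genes of 2-cell genome activation 2 rose and 0 fell, and the median was 1.42, with 25 of the 32 above 0 and 12 with an unadjusted p under 0.05. The DESeq2 Wald test called 7 higher and the fit to the 8 late 8-cell libraries also 7, and without 1 of the 4 libraries 0 to 1 were called. The 2 are the gene models Gm5662, at 87.6 and 173 CPM in I1394G and 15.9 and 17.8 CPM in controls (log2 fold change 2.95 ± 0.63, adjusted p = 0.0152), and Gm8300, at 10.3 and 37.6 CPM in I1394G and 0.7701 and 1.77 CPM in controls (log2 fold change 4.24 ± 1.06, adjusted p = 0.037), whose repeated copies can share reads. The I1394G values of Gm8300 were uneven, and the Zscan4 members were at 0.386 CPM or less in all 4 libraries.

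The rises among markers of other cells were also read 1 by 1. Amhr2, the receptor of anti-Müllerian hormone, had 62.6 and 54.1 CPM in I1394G, 20.4 and 27.4 CPM in P300 siRNA, 47.01 and 70.5 CPM in P300 siRNA NaCr and 30.5 and 22.3 CPM in controls, and I1394G stood above both controls (adjusted p = 0.0222) and P300 siRNA (adjusted p = 0.00588). Its ligand Amh and the granulosa factor Foxl2 had at most 0.204 CPM in I1394G. Cyp11a1, the first enzyme of steroid synthesis, had 3.22 and 3.26 CPM in I1394G and 0 and 0 CPM in controls, at least 40.6-fold higher (adjusted p = 0.00314). Cd68, a lysosomal protein of macrophages, had 33.9 and 48.6 CPM in I1394G and 7.39 and 6.89 CPM in controls (log2 fold change 2.53 ± 0.44, adjusted p = 0.00411). Des, the muscle filament protein, had 3.32 and 2.47 CPM in I1394G and 1.49 and 0.607 CPM in controls (log2 fold change 1.45 ± 1.05, adjusted p = 0.529).

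The 10 called genes with the most counts moved in both directions. Eif4e, which binds the mRNA cap, had 3109 and 2917 CPM in I1394G embryos, against 1894 and 1945 CPM in controls (log2 fold change 0.65 ± 0.16, adjusted p = 0.0309). Eloc, elongin C of ubiquitin ligases, had 1405 and 1650.2 CPM in I1394G embryos, against 2728 and 2558 CPM in controls (log2 fold change -0.79 ± 0.20, adjusted p = 0.0397), and Sugt1, a co-chaperone of HSP90, had 1326 and 1408 CPM in I1394G and 2424 and 2302 CPM in controls (log2 fold change -0.79 ± 0.20, adjusted p = 0.0374). Lrpap1, a chaperone of the LDL receptor family, had 900.3 and 891 CPM in I1394G and 1965 and 2217 CPM in controls (log2 fold change -1.22 ± 0.31, adjusted p = 0.0388), with 262 and 376 CPM in P300 siRNA embryos (adjusted p = 0.00622). Timm23, of the mitochondrial import channel, had 797 and 773 CPM in I1394G and 1342 and 1448 CPM in controls (log2 fold change -0.83 ± 0.20, adjusted p = 0.033), and Metap2, which trims the first methionine of new proteins, had 795 and 804 CPM in I1394G and 1216 and 1253 CPM in controls (log2 fold change -0.63 ± 0.17, adjusted p = 0.0495). Odc1, the first enzyme of polyamine synthesis, had 629 and 592 CPM in I1394G and 1396 and 1265 CPM in controls (log2 fold change -1.12 ± 0.19, adjusted p = 0.00275). Eif4e was above both controls, and Eloc, Sugt1, Lrpap1, Timm23, Metap2 and Odc1 were below them. Ftl1, Fth1 and Prdx1, which rose, complete the 10.

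**Figure D4:**
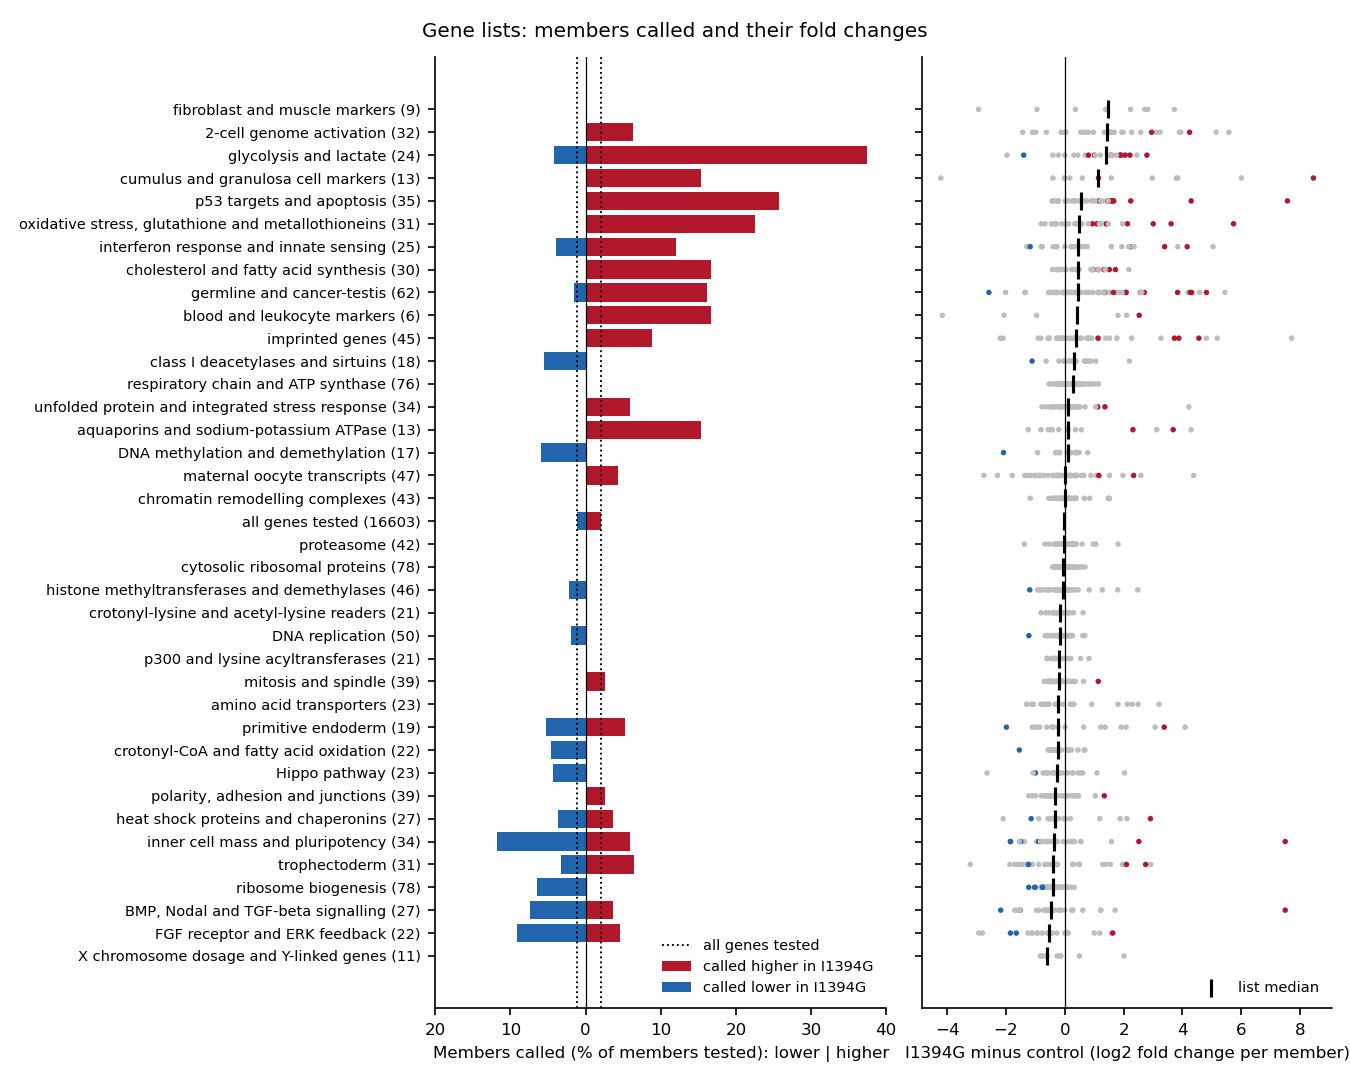
For each gene list, with its number of tested members in brackets, the left panel gives the percentage of members called higher (red, right of 0) or lower (blue, left of 0) in I1394G, with dotted lines at 1.99% and 1.18% for all genes tested. The right panel gives each member's log2 fold change, with called members coloured and the list median as a black bar; the highest called share is that of glycolysis, with 9 of 24 members higher.

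The early 8-cell embryos give a view of the same genes in other libraries. There P300 siRNA was compared with control embryos that share no library with the late 8-cell comparison, and 2741 genes were called, 1363 higher (8.21% of genes tested) and 1378 lower (8.3%). Both comparisons took each gene's spread from the same fit to all 20 libraries, so their calls are not independent. Of the 331 genes higher in late I1394G embryos, 146 were also higher in early P300 siRNA embryos. That is 44.1% of the late set and 10.7% of the early one, and 12 (3.63%) were lower. Of the 196 genes lower in late I1394G embryos, 87 were also lower early, 44.4% of the late set and 6.31% of the early one, and 4 (2.04%) were higher. The median early change was 1.296 for the higher genes, -0.77 for the lower genes and 0.04 for all genes tested. Control early 8-cell replicate 2, whose deposited counts and FPKM values matched less well than those of any other library, lowers these numbers to 94 and 66 when it is left out. With limma on log2 FPKM at a pseudocount of 1, where only 165 genes were called early, they were 22 and 2.

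By gene, the early change followed the late one for some genes and not for others. Of the 9 glycolysis genes that rose late, 8 were also called higher early, and Ldhb was not, at -0.14 ± 0.35 (adjusted p = 0.861). Ldha, Pkm and Eno1 were higher in early P300 siRNA embryos, with log2 fold changes of 3.48 ± 0.31, 2.98 ± 0.25 and 2.76 ± 0.26 (adjusted p = 6.31e-06, 6.31e-06 and 6.94e-06). Btg2 and Cd81 were higher too, at 2.69 ± 0.36 and 2.71 ± 0.53 (adjusted p = 8.56e-05 and 0.00194). Klf5 and Lrpap1 were lower in early P300 siRNA embryos, at -2.196 ± 0.24 and -3.003 ± 0.33 (adjusted p = 1.59e-05 and 2.04e-05). Aqp11 was called in the opposite direction, at -1.26 ± 0.29 (adjusted p = 0.00631). Tet2, at 0.02 ± 0.26, Fdps, at 0.56 ± 0.32, and Sncg, at 1.46 ± 1.13, were not called there (adjusted p = 1, 0.243 and 0.409). Across genes, the late and early log2 fold changes had a Pearson r of 0.276 over the 16603 genes tested and of 0.411 over the 7505 with a mean of at least 10 CPM in the late groups. Genes are not independent replicates, and the points within an axis share libraries.

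Control embryos were also compared by stage, with the spread again taken from the same fit. Early 8-cell against 4-cell controls differed at 187 genes, 103 higher (0.62%) and 84 lower (0.506%). Of the 331 genes higher in I1394G, 9 were higher with stage, which is 2.72% of these genes and 8.74% of the stage genes, and 4 were lower, 1.21% and 4.76%. Of the 196 lower genes 0 were higher and 0 lower.

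**Figure D5:**
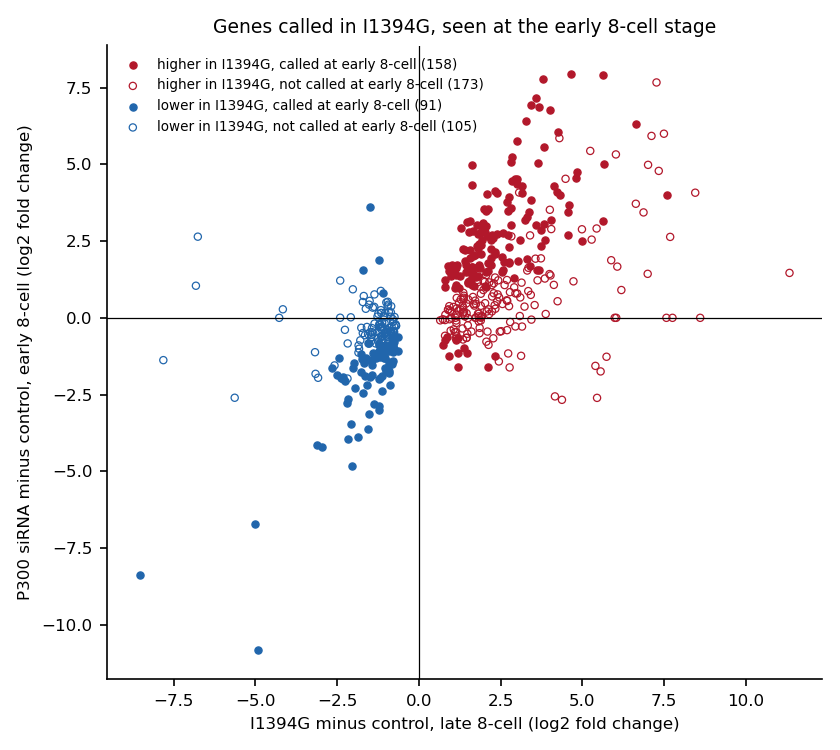
Log2 fold change of P300 siRNA over control at the early 8-cell stage (vertical axis) against that of I1394G over control at the late 8-cell stage (horizontal axis) for the 527 genes called at the late stage, with filled points where the early change was also called (158 of the higher and 91 of the lower genes). Of the filled points 146 are higher and 87 lower at both stages.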

How the data were processed

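Smart-seq2 libraries of mouse preimplantation embryos, 2 per group in 10 groups, were used as deposited. The authors deposited gene-level read counts without normalisation. The FPKM table, deposited by the authors, was used only as an alternative. Per the submitters' processing notes the tools were bcl2fastq 2.20.0.422, cutadapt 4.1, HISAT2 2.2.1 and Cufflinks 2.2, on genome build mm9; how genes were counted, and whether strand was used, is not given in the sources used here, so overlapping and antisense genes cannot be told apart. Every column matched a sample description. Correlation of log2 counts with log2 FPKM over 7134 genes with a mean count of at least 200 was 0.769 for control early 8-cell replicate 2 and 0.87 to 0.905 for the others.

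The counts were modelled with edgeR 4.0.16 in R 4.3.3: default low-count filter by group, TMM scaling, 1 coefficient per group over all 20 libraries (10 residual and 7.98 prior degrees of freedom), quasi-likelihood F test, Benjamini-Hochberg adjustment over 16603 genes, and a threshold of 0.05. The SE is the size of the log2 fold change over the square root of F. The median SE was 0.501 over all genes and 0.285 over genes with a mean of at least 10 CPM. The test was tested on simulated data. Replicate log2 CPM correlated at 0.991 (I1394G) and 0.994 (control), and no 2 libraries were identical. The replicate differences of I1394G and control correlated at r = 0.0913 over 7505 genes, and no block was used. This single correlation cannot show whether libraries of the same replicate number were collected together.

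The 37 gene lists were written from general knowledge, and the comparison and the lists were chosen with earlier results of these data known. Genes were named by a rule: Ep300; the 15 largest rises and 15 largest falls among called genes with at least 10 CPM in the higher group, separated libraries and a gene name; up to 4 called members per list by adjusted p, or the member with the most counts; 10 lineage factors; and the 10 called genes with the most counts. The further list members given by name or value, and the X-linked and Y-linked genes, were chosen after their values were seen. Chromosomes and promoters come from RefSeq GRCm38.p6 by symbol, and no coordinates of the mm9 files are given.

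Alternatives were DESeq2 size factors, the DESeq2 1.42.0 Wald test, no low-count filter, limma 3.58.1 on log2 FPKM (pseudocounts of 1 and 0.1, genes reaching 1 FPKM in 2 libraries), a least log2 fold change of 1, fits to fewer libraries, a replicate block and leaving out libraries.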

Additional observations from a re-analysis of the deposited data

How the results depend on the processing

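All 527 calls kept their direction in every alternative in which the gene was tested (522 genes with FPKM, 521 with 4 libraries, 525 with the late 8-cell libraries). The number of calls moved more than their direction. The DESeq2 Wald test called 1074 genes (669 higher, 405 lower), and no filter on low counts gave 1140 (736 and 404). With limma on log2 FPKM 330 genes were called at a pseudocount of 1, of which 91 were lower, and 269 at a pseudocount of 0.1, of which 48 were lower, so that 72.4% and 82.2% of calls were higher, against 62.8% in the count test; the all-gene median shifted by 0.104 and 0.106. DESeq2 size factors gave 495 calls and a minimum log2 fold change of 1 gave 452.

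Fits to fewer libraries take the spread from fewer groups. Only the 4 libraries gave 4031 calls (2157 higher, 1874 lower) and only the 8 late 8-cell libraries 1605 (1013 and 592), with 53.5% and 63.1% higher. With a replicate block they gave 4137 (2170 and 1967) and 1484 (962 and 522). Whether the replicate numbers pair the libraries is not known, so the block is not shown to be a better design. Leaving out 1 of the 4 libraries left 56 to 162 calls, 40 to 134 higher and 7 to 28 lower: 98 without I1394G replicate 1, 162 without I1394G replicate 2, 56 without control replicate 1 and 63 without control replicate 2. The lone sample is then assumed to vary like the other groups. In alternatives chosen after seeing the data, leaving out control 4-cell replicate 1 gave 859 calls (511 higher, 348 lower) and leaving out its replicate 2 gave 846 (510 and 336).

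At the early 8-cell stage the 2741 calls became 165 and 187 with limma at pseudocounts of 1 and 0.1, and 1313 to 3419 when 1 library was left out (1654 and 1729 without P300 siRNA replicate 1 and 2, 1313 without control replicate 2). Genes higher at both stages then numbered 22 and 25 with limma, 292 with the Wald test and 341 without the filter, against 146, and genes lower at both 2, 1, 182 and 195, against 87; without 1 of the 4 late libraries they numbered 19 to 67 and 5 to 15. The 187 stage calls became 425 with the Wald test, 693 without the filter, and 113 to 928 when 1 library was left out (928 without control 4-cell replicate 1, 113 without its replicate 2). The causes were not tested. Depth limits low genes: 3 counts over a group correspond to 0.0709 CPM in I1394G and 0.0798 CPM in controls. A gene without a call is not an unchanged gene.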
